A study of Mus musculus with 15 samples.

Results

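The surfactant protein genes Sftpa1, Sftpb, Sftpc and Sftpd were followed across 15 mouse arrays, through every probe set that the array's annotation assigns to them. They are 4 of 18193 genes measured, and they hold 6 of 45037 probe sets: 2 each for Sftpa1 and Sftpc, 1 each for Sftpb and Sftpd. The study asked how similar tumours of engineered mice are to human small cell lung cancer, a neuroendocrine tumour that grows and spreads fast. The first group held 10 tumours of genotype RbΔ/Δ; p53 Δ/Δ, dissected 8 to 12 months after the mice had received an adenovirus carrying Cre recombinase through the nose. The second group held 3 tumours that carried, besides Rb Δ/Δ and p53 Δ/Δ, also p130 Δ/Δ, dissected 6 months after the same virus. The third group held 2 tumour-free lungs of wild-type adult mice. The virus can enter any airway or alveolar cell it reaches, and a dissected tumour keeps blood vessels, immune cells and neighbouring lung. Nothing in the labels tells whether each array of a group is a mouse of its own, and p-values therefore cover the spread among these samples alone, which may be technical.

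Pulmonary surfactant is a film of phospholipid and protein that lowers surface tension in the alveoli, and alveolar type 2 cells make it, store it in lamellar bodies and secrete it. Surfactant proteins B and C (Sftpb, Sftpc) are small hydrophobic proteins cut out of larger precursors, and they spread the lipid at the surface of the fluid. Surfactant proteins A and D (Sftpa1, Sftpd) are large soluble collectins that bind sugars on microbes and act in innate defence of the airways. Sftpc is close to specific for alveolar type 2 cells, while club cells of the small airways also make Sftpa1, Sftpb and Sftpd. The transcription factor NKX2-1, with FOXA factors beside it, is known to drive surfactant protein genes.

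The labelled tissues were read from lists of cell type markers. The mean log2 level of 17 measured neuroendocrine genes lay between 5.36 and 5.75 in the lungs, between 10.97 and 11.85 in the Rb/p53 tumours and between 11.28 and 11.57 in the Rb/p53/p130 tumours, and all 17 were higher in each tumour group by limma (adjusted p below 0.05). By the same rule, 18.3% of all genes were higher in the Rb/p53 tumours and 15.3% in the Rb/p53/p130 tumours. The mean of 16 alveolar type 1 genes lay between 11.96 and 12.34 in the lungs, between 8.19 and 10.17 in the Rb/p53 tumours and between 9.25 and 9.40 in the Rb/p53/p130 tumours. The mean of this alveolar type 1 list thus stayed above the array median in every tumour. That of 15 ciliated cell genes lay between 9.10 and 9.51 in the lungs. It ran from 6.17 to 6.79 in the Rb/p53 tumours and from 6.23 to 6.26 in the Rb/p53/p130 tumours, about the array medians. Array medians ran from 6.58 to 6.68, and precision is bounded by how few arrays there are, above all the 2 lungs. Of the targeted genes, Rb1 stood at 11.50 ± 0.41 (SD, n = 10) in the Rb/p53 tumours against 10.20 ± 0.20 (SD, n = 2) in lung. Rbl2, the gene of p130, stood at 8.61 ± 0.21 (SD, n = 3) without p130 and at 8.66 ± 0.42 (SD, n = 10) in the Rb/p53 tumours. Whether these probe sets lie in the deleted parts is unknown, so they check no label.

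The promoters of Sftpa1 and Sftpb, the 2 members found in RefSeq's promoter table (assembly GRCm38.p6), are shown first. Whether their motifs bear on the levels that follow was not tested. Each sequence is the 250 bases before the start of the gene on the plus strand, at chr14:41131538-41131787 for Sftpa1 and at chr6:72304360-72304609 for Sftpb. Capitals mark matches to 3 motifs searched on both strands: CTCAAG (bound by NKX2-1), TGTTTNC (bound by FOXA factors) and TATAA (the TATA box). No capitals overlap.

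Sftpa1: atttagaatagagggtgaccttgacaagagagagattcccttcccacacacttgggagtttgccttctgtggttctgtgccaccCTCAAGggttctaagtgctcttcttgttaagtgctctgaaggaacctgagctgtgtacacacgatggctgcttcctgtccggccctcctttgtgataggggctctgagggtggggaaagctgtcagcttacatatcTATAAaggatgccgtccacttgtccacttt
Sftpb: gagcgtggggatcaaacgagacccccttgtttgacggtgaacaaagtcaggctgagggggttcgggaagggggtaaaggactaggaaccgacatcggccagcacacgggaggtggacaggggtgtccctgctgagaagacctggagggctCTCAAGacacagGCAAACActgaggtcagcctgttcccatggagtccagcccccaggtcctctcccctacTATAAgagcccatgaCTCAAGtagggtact

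The Sftpa1 promoter held CTCAAG 166 to 161 bases before the start, and TATAA 30 to 26 bases before it. The Sftpb promoter held CTCAAG at 2 places, 100 to 95 and 15 to 10 bases before the start, with TATAA again 30 to 26 bases before it. Between them in Sftpb lay a FOXA type match on the minus strand (read as GCAAACA on the plus strand), 88 to 82 bases before the start. Of 32851 promoters of the same length, 13.3% held CTCAAG, 17.8% TGTTTNC and 22.8% TATAA. A match describes letters and is not a bound site.

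Read through its brightest probe set, each surfactant gene was lower in every one of the 13 tumours than in either normal lung. On these probe sets all 4 genes stayed above the array median in every tumour. The second probe sets of Sftpa1 and Sftpc are given below. Relative to lung, the mean of the Rb/p53 tumours fell 8.9-fold for Sftpa1, 5.46-fold for Sftpb and 4.79-fold for Sftpd, and these falls passed limma's test. None was called with the Gapdh 3' minus 5' control difference as a covariate (Sftpa1 -0.50 ± 2.56, SE; limma adjusted p = 0.948), a value that stood at 0.88 and 0.72 in the lungs and at -0.07 to 0.36 in the tumours. Sftpc, the type 2 cell gene, had the smallest difference and did not pass. In bulk tissue, fewer cells of a type and less RNA per cell cannot be told apart.

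Sftpc, read from its bright probe set, stood at 14.90 and 14.86 on the log2 scale in the lungs. The Rb/p53 tumours ran from 10.89 (tumour 8) through a median of 13.56 to 14.57 (tumour 3), and the Rb/p53/p130 tumours 11, 12 and 13 stood at 13.65, 13.65 and 12.13. The lungs were almost equal, the tumours were spread over a 12.7-fold range, and no tumour reached a lung. The change in Rb/p53 tumours was -1.52 ± 0.77 (SE; 95% interval -3.16 to 0.13; limma adjusted p = 0.156). An exact two-sided permutation test gave p = 0.0303, the smallest that 66 splits of 10 against 2 arrays allow.

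Sftpb stood at 12.10 and 12.61 in the lungs. In the Rb/p53 tumours it ran from 8.65 (tumour 7) through a median of 9.53 to 11.49 (tumour 10), and in the Rb/p53/p130 tumours it stood at 9.97, 10.04 and 10.30. All tumours lay below both lungs, and the Rb/p53/p130 tumours lay inside the range of the Rb/p53 tumours. The change in Rb/p53 tumours was -2.45 ± 0.70 (SE; limma adjusted p = 0.0147). It was not called without normal lung 1 (-2.70, limma adjusted p = 0.072) or normal lung 2 (-2.20, adjusted p = 0.14).

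Sftpa1, the gene of the collectin surfactant protein A, stood at 14.22 and 14.54 in the lungs on its bright probe set. The Rb/p53 tumours ran from 7.86 (tumour 8) through a median of 11.25 to 13.25 (tumour 3), and the Rb/p53/p130 tumours stood at 10.98, 11.44 and 9.79. Tumour 8 was low even among the tumours, and the range of the Rb/p53 tumours was 41.9-fold. The change in Rb/p53 tumours was -3.15 ± 1.08 (SE; limma adjusted p = 0.0369). It was not called in limma fits without tumour 4 (-3.05, adjusted p = 0.0522), tumour 9 (-3.06, 0.0526), normal lung 1 (-3.31, 0.156) or normal lung 2 (-2.99, 0.197).

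Sftpd, the gene of the other collectin, stood at 13.83 and 13.92 in the lungs. The Rb/p53 tumours ran from 9.75 (tumour 8) through a median of 11.59 to 13.09 (tumour 3), and the Rb/p53/p130 tumours stood at 11.82, 12.05 and 11.70. The Rb/p53/p130 tumours lay within 0.35 of each other, close to the Rb/p53 median. The change in Rb/p53 tumours was -2.26 ± 0.77 (SE; limma adjusted p = 0.0365). It was not called in limma fits without tumour 9 (-2.20, adjusted p = 0.052), normal lung 1 (-2.30, 0.168) or normal lung 2 (-2.22, 0.181).

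**Figure D1:**
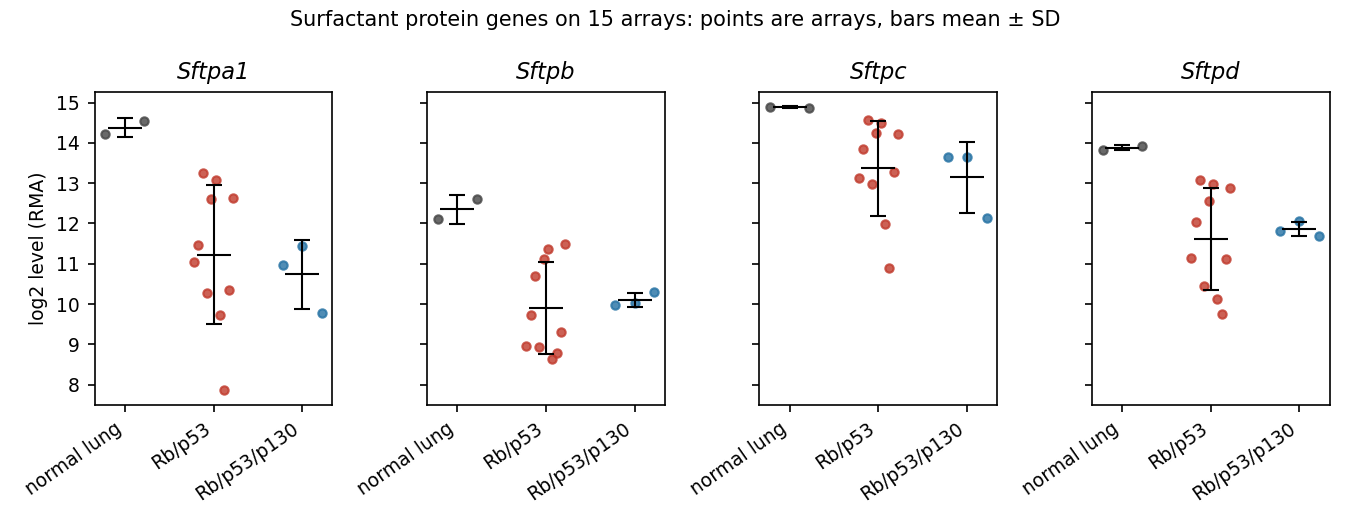
Log2 level (vertical axis) of the bright probe set of each surfactant protein gene on 15 arrays in 3 groups. Points are arrays and bars are mean ± SD; no tumour point reaches a normal lung point in any panel.

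For Rb/p53 tumours against lung, 3 of the 4 genes were called lower, where 20.5% of all genes measured were called lower. The median change of the 4 genes was -2.35 and that of all genes -0.02. All 4 genes were lower on all 10 tumour arrays than on both lungs, as were 20.2% of all genes. These shares are above those of all genes, but the 4 genes moved together across tumours and share the same 2 lungs. They are not 4 separate observations, and these counts do not by themselves set the surfactant genes apart.

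In Rb/p53/p130 tumours against the same 2 lungs, the fall of Sftpa1 passed the test at -3.65 ± 1.28 (SE; limma adjusted p = 0.0493), a 12.5-fold difference. Sftpb differed by -2.26 ± 0.83 (adjusted p = 0.0608), Sftpd by -2.02 ± 0.91 (0.128) and Sftpc by -1.74 ± 0.91 (0.191), none of which passed. So 1 of 4 genes was called lower, against 15.6% of all genes, and all 4 genes lay below both lungs on all 3 arrays, as did 33.2% of all genes. The exact permutation test cannot go below p = 0.2 with 10 splits, and it gave that value for each. The Sftpa1 call was lost in 11 of 15 fits that left out 1 array (adjusted p between 0.0141 and 0.187), and fitting these 5 arrays alone called all 4 genes. The share of all genes called in the fit of these 5 arrays alone is not given here, so that count has no background beside it. Both comparisons with lung share the 2 lungs, so their likeness is no second observation.

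Between the tumour genotypes no surfactant gene was called by limma, and none had an unadjusted p below 0.05 by limma or by the exact permutation test. Rb/p53/p130 tumours differed from Rb/p53 tumours by -0.49 ± 0.92 for Sftpa1 (95% interval -2.46 to 1.47; limma adjusted p = 0.916) and by 0.19 ± 0.60 for Sftpb (-1.09 to 1.47; 0.954). The differences were -0.22 ± 0.65 for Sftpc (-1.62 to 1.18; 0.952) and 0.24 ± 0.66 for Sftpd (-1.16 to 1.65; 0.947). Groups overlapped for all 4 genes, and only 0.0715% of all genes were called in this comparison. The intervals leave room for a change of more than 1 log2 unit either way, and the genotypes also differ in the time after infection.

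A second probe set gave another reading of Sftpa1. It stood at 13.11 and 13.60 in the lungs, ran from 5.45 through a median of 9.25 to 11.53 in the Rb/p53 tumours, and stood at 9.38, 9.86 and 8.12 in the Rb/p53/p130 tumours. Its changes against lung were -4.34 ± 1.21 (SE; limma adjusted p = 0.0125) and -4.24 ± 1.43 (adjusted p = 0.0414), where 16.1% and 12.7% of all probe sets were called lower. The dimmer probe set thus showed a larger difference than the bright one. The gap between both on the same array was 0.94 to 1.11 in the lungs, 1.73 to 2.65 in the Rb/p53 tumours and 1.59 to 1.67 in the Rb/p53/p130 tumours, and no tumour overlapped a lung.

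The second Sftpc probe set, whose suffix _x marks probes that may bind other transcripts, was dim on every array. It stood at 5.19 and 4.27 in the lungs, ran from 4.34 to 5.45 in the Rb/p53 tumours, and stood at 4.89, 5.10 and 4.98 in the Rb/p53/p130 tumours. These values lie about the highest lower quartile of the arrays, 5.05, while the bright Sftpc probe set read near the top. The dim probe set did not differ by the test in Rb/p53 tumours (0.20 ± 0.26, SE; limma adjusted p = 0.607) or Rb/p53/p130 tumours (0.26 ± 0.30; adjusted p = 0.602), and it was not used further.

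Several values lay near the top of the array's scale, where a probe set's brightness can stop following the amount of RNA. Near the top was taken as among the 46 brightest probe sets of an array or within 1 log2 unit of its highest value. Highest values, controls left out, ran from 14.84 to 15.2. Sftpc lay 0.30 and 0.33 below the highest value of the lung arrays, with 1 and 3 probe sets above it. Among Rb/p53 tumours it lay 0.46 below in both tumour 3 and tumour 6, with 10 and 15 probe sets above it, 0.60 below in tumour 5 and 0.76 below in tumour 10. It lay at or above the 99th percentile in 8 of 10 Rb/p53 tumours, and only tumours 7 and 8 were lower (2.85 and 3.98 below). In the Rb/p53/p130 tumours Sftpc lay 1.23 to 2.99 below the highest value.

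Sftpa1 was near the top in lung alone, 0.97 and 0.65 below the highest value with 41 and 14 probe sets above it, and between 1.77 and 7.01 below it in the tumours. Sftpd lay 1.37 and 1.27 below in the lungs and Sftpb 3.09 and 2.58 below, outside both limits. Of the 60 readings of the 4 genes, 6 were near the top by the first limit and 8 by the second. The part of this closeness to the top in the size of the Sftpc and Sftpa1 differences was not tested.

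**Figure D2:**
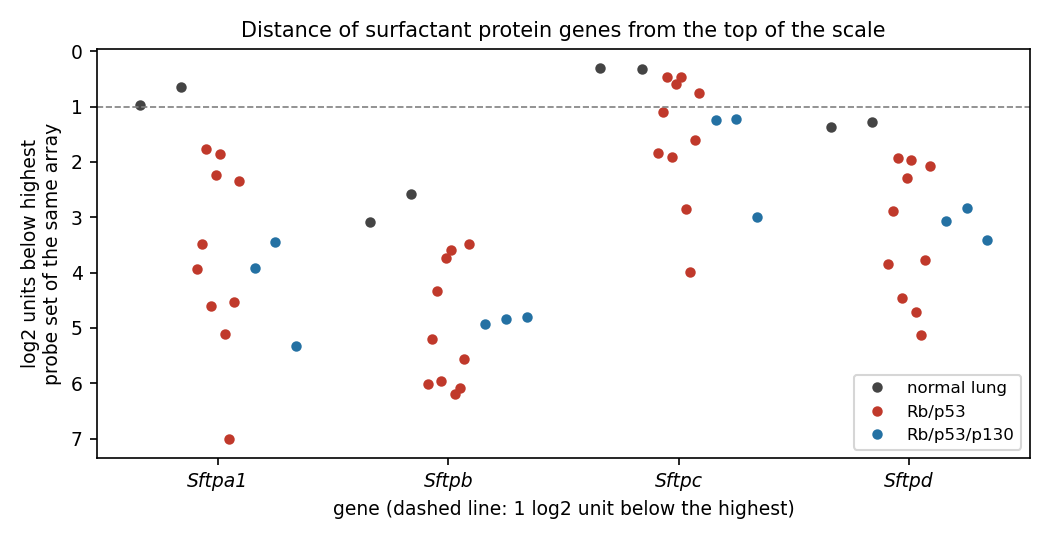
Distance of each surfactant protein gene below the highest probe set of the same array, in log2 units on an inverted vertical axis, for 15 arrays coloured by group. The dashed line marks 1 log2 unit; both lungs for Sftpa1, and both lungs and 4 Rb/p53 tumours for Sftpc, lie above it.

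Whether the genes changed by unequal amounts could hardly be decided with 2 lungs, because the exact permutation test against lung has a floor of p = 0.0303 with 10 tumours and of p = 0.2 with 3, before adjustment. Within an array, Sftpa1 stood 0.67 and 0.32 below Sftpc in the lungs and 1.31 to 3.03 below it in the Rb/p53 tumours, so that the change of Sftpa1 minus that of Sftpc was -1.64. The change of Sftpa1 minus that of Sftpd was -0.89, and that of Sftpc minus that of Sftpd was 0.74, again with no overlap between tumours and lungs. These 3 differences each had an exact two-sided permutation p = 0.0303, the smallest possible, and an adjusted p = 0.182 over the 18 differences tested (6 gene pairs in 3 comparisons). None of the 18 had an adjusted p below 0.05, and only these 3 had an unadjusted p below it. Sftpc and Sftpa1 lay near the top of the scale in lung, as given above.

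Among the 10 Rb/p53 tumours the genes were high or low together. Tumour 6 ranked second for all 4 genes, tumour 3 ranked first for Sftpa1, Sftpc and Sftpd and lower, at place 4, for Sftpb, and tumour 10 ranked first for Sftpb. Tumours 7 and 8 held the last places of each gene. Tumour 3 lay 1.13 below the lung mean for Sftpa1 and 0.31 below it for Sftpc, whereas tumour 8 lay 6.52 and 3.99 below.

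**Figure D3:**
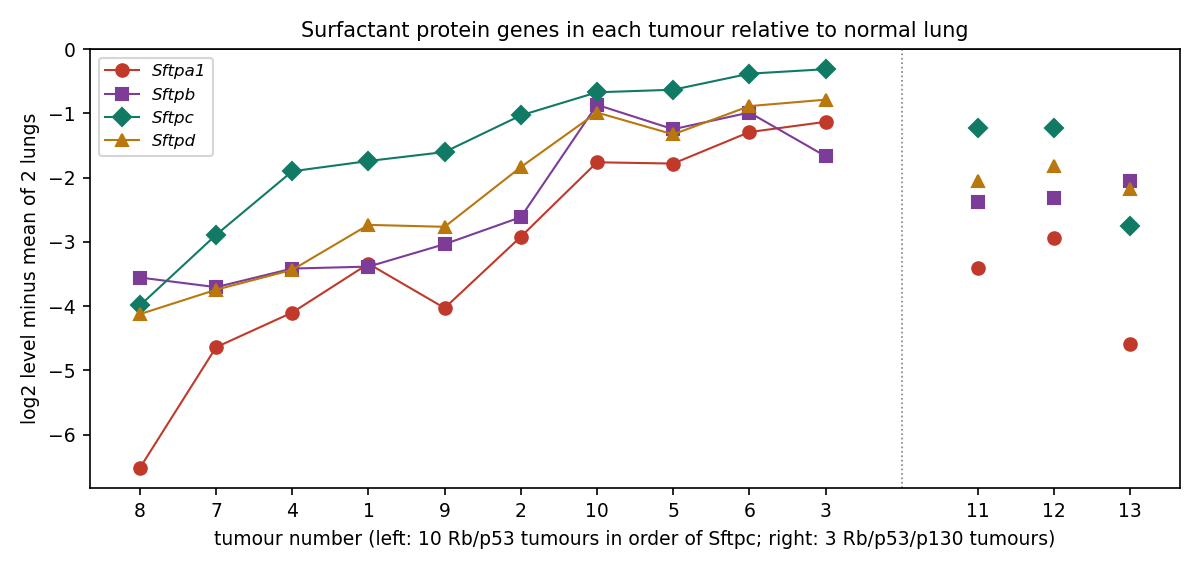
Log2 level minus the mean of 2 lungs (vertical axis) for the 4 surfactant protein genes in each tumour, with the 10 Rb/p53 tumours ordered by Sftpc on the left and the 3 Rb/p53/p130 tumours on the right. All points lie below 0; all 4 lines are low in tumours 7 and 8 and high in tumours 3, 5, 6 and 10, and Sftpa1 spans the widest range.

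Across these 10 tumours all 6 gene pairs were correlated. The share of all gene pairs that reach such r was not computed, and vessel and immune cell lists, given below, also gave high r. Sftpa1 and Sftpc gave r = 0.97 (permutation p = 1e-05, the smallest that 100000 permutations can give; adjusted p = 0.000135) and rho = 0.98 (permutation p = 2e-05, adjusted p = 0.00054). Sftpa1 and Sftpd, the collectins, gave r = 0.96 (permutation p = 1e-05, adjusted p = 0.000135) and rho = 1.00 (1e-05, 0.00054), which means that they ordered the tumours identically. Sftpc and Sftpd gave r = 0.94 (permutation p = 1e-05, adjusted p = 0.000135) and rho = 0.98 (3e-05, 0.00054). Without the 2 tumours farthest from the median, these r were 0.97, 0.98 and 0.96.

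The pairs with Sftpb had r between 0.82 and 0.93. With Sftpd it gave r = 0.93 (permutation p = 0.00035, adjusted p = 0.00157) and rho = 0.89 (0.0012, 0.00432), with Sftpa1 r = 0.87 (permutation p = 0.00109, adjusted p = 0.00345) and rho = 0.89 (0.0012, 0.00432). With Sftpc it gave r = 0.82 (permutation p = 0.00197, adjusted p = 0.00532) and rho = 0.88 (0.00164, 0.00519). Without the 2 farthest tumours these r were 0.96, 0.85 and 0.92. Whether r differed between gene pairs was not tested. P-values were adjusted over 54 relations, these 6 and those with 12 cell type lists, of which 35 had an adjusted p below 0.05 for r.

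Markers of alveolar cells, vessels and immune cells moved with the surfactant genes across the same tumours. The mean of 23 other alveolar type 2 genes gave r = 0.93 with Sftpa1, 0.97 with Sftpb, 0.91 with Sftpc and 0.97 with Sftpd (permutation p from 1e-05 to 7e-05, adjusted p from 0.000135 to 0.00054), with rho from 0.92 to 0.96 (permutation p from 5e-05 to 0.0006, adjusted p from 0.00063 to 0.0027) and r of at least 0.87 without tumours 3 and 6. Endothelial genes gave r from 0.84 to 0.94 (adjusted permutation p at most 0.00345, rho from 0.88 to 0.95) and alveolar type 1 genes r from 0.82 to 0.92 (adjusted permutation p at most 0.00667, rho from 0.84 to 0.93). Alveolar macrophage genes gave r from 0.79 to 0.94 (adjusted permutation p at most 0.0227, rho from 0.79 to 0.92) and leukocyte genes r from 0.83 to 0.88 (adjusted permutation p at most 0.014, rho from 0.81 to 0.85). The part of tissue makeup in the surfactant values was not tested.

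Airway, mesothelial and fibroblast lists gave the following values. Club and secretory cell genes, which share Sftpa1, Sftpb and Sftpd with type 2 cells, gave r = 0.68, 0.81, 0.66 and 0.71 with Sftpa1, Sftpb, Sftpc and Sftpd (adjusted permutation p = 0.046, 0.00667, 0.0552 and 0.0388), with rho from 0.70 to 0.83. Mesothelial genes gave r from 0.67 to 0.70 (adjusted permutation p from 0.0394 to 0.05), and fibroblast and smooth muscle genes r from 0.55 to 0.65 (adjusted permutation p from 0.0673 to 0.129). Without tumours 4 and 10 the fibroblast list gave r = 0.79, 0.84, 0.68 and 0.76 with Sftpa1, Sftpb, Sftpc and Sftpd. Ciliated cell genes gave r from 0.60 to 0.73 (adjusted permutation p from 0.0355 to 0.093) and rho from 0.65 to 0.75 (adjusted permutation p from 0.0333 to 0.0698). Their r dropped to between 0.36 and 0.58 without tumours 3 and 6. Without tumours 7 and 10, r was 0.59 to 0.71 for the club and secretory list and 0.50 to 0.66 for the mesothelial list. Neuroendocrine genes gave r = 0.16, 0.35, 0.11 and 0.28 (adjusted permutation p = 0.758, 0.379, 0.819 and 0.503), and cardiac muscle and hepatocyte genes gave r between -0.17 and 0.31. No relation of the surfactant genes with the neuroendocrine list was thus detectable over 10 tumours.

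**Figure D4:**
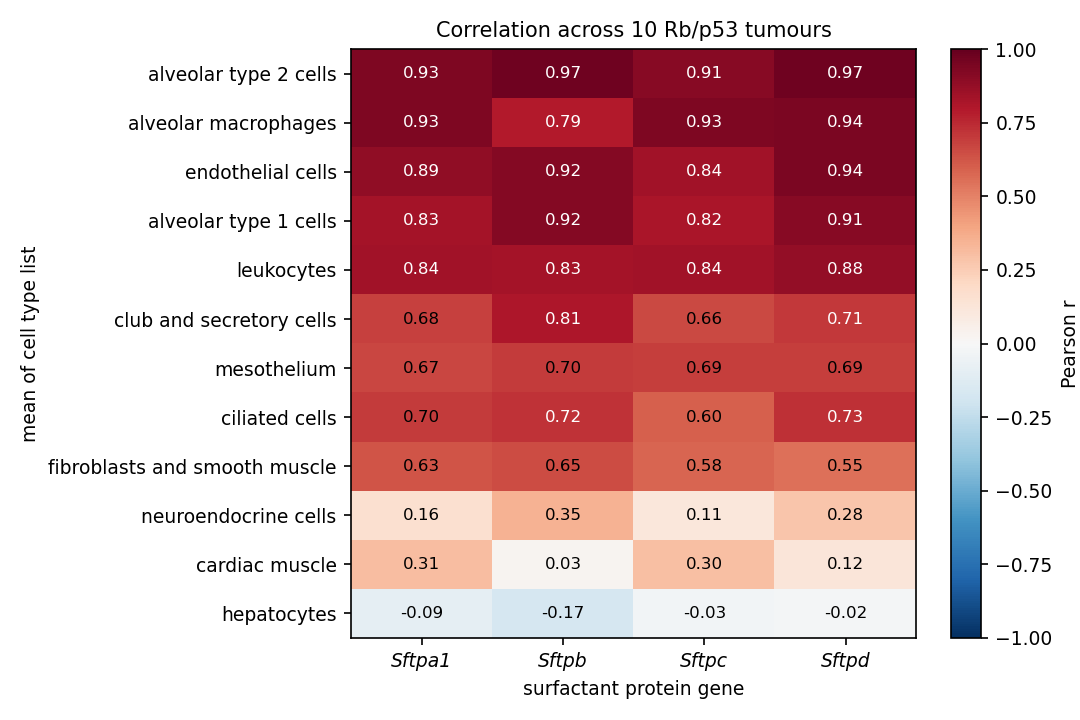
Pearson r across 10 Rb/p53 tumours between each surfactant protein gene (columns) and the mean log2 level of each cell type list without the surfactant genes (rows), with the value printed in each cell. Alveolar, vessel and immune lists show r from 0.79 to 0.97, and neuroendocrine, cardiac muscle and hepatocyte lists r from -0.17 to 0.35.

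The genes most like each surfactant gene over the 10 Rb/p53 tumours, the 8 with the highest r among 11569 brighter genes, had r from 0.94 to 0.99. For Sftpa1 they were Antxr2, Hc, Apoc1, Lyz2, Lyz1, Ogn, Svep1 and Napsa. For Sftpc they were Hc, Lyz1, Lyz2, Tmbim1, Mcemp1, Fxyd5, Antxr2 and Inhbb, of which 4 (Hc, Lyz1, Lyz2, Antxr2) are in the Sftpa1 group too. Lyz1 and Lyz2, near-identical lysozyme genes, can share probes. Hc is complement factor C5.

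For Sftpb they were Ctsh (r = 0.99), a cathepsin that cuts surfactant protein precursors, and Dpp4, Hp, Mal, Foxq1, Iscu, Dram1 and H2-DMa. For Sftpd they were Gsap, Chil1, Mdfic, Napsa, Akap2, Npc2, Dram1 and Scd1. Napsa encodes the protease napsin A and Scd1 a fatty acid desaturase. Of the 26 different genes, 7 are in the alveolar type 2 list. The genes with the lowest r included Cdca4 and Fam171a2 for Sftpa1 (both -0.95), Chtf18 for Sftpb (-0.96), Fam171a2 for Sftpc (-0.96), and Ctbp2 (-0.96) and the mitotic kinase gene Aurka (-0.95) for Sftpd. Each likeness is over 10 arrays and was picked as the highest or lowest of those genes.

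Some genes of a list for surfactant processing and the lamellar body fell too. For this list and those below, values are from the main fit. Whether calls of single list genes against lung held without 1 lung or with the Gapdh covariate is not given here. This list also holds the transporter gene Slc34a2 and the channel gene Scnn1g. Of 12 measured, 6 were called lower and 1 higher in Rb/p53 tumours against lung (median change -1.04), and 4 lower and 1 higher in Rb/p53/p130 tumours (-0.94). Of all genes, 20.5% and 15.6% were called lower and 18.3% and 15.3% higher in these comparisons. Both proteases that cut the precursors were lower in Rb/p53 tumours: Napsa by -2.78 ± 0.81 (SE; limma adjusted p = 0.0157) and Ctsh by -1.87 ± 0.47 (0.00625). In Rb/p53/p130 tumours Napsa fell by 2.83 ± 0.95 (limma adjusted p = 0.0414), and Ctsh differed by -1.41 ± 0.55 (0.0757), which did not pass. Abca3, the pump that loads lipid into lamellar bodies, fell by 2.01 ± 0.39 (limma adjusted p = 0.000998) and 1.88 ± 0.46 (0.0071) in these groups.

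Lpcat1, which remodels surfactant phospholipid, fell by 1.53 ± 0.29 in Rb/p53 tumours (SE; limma adjusted p = 0.00087) and fell by 2.23 ± 0.34 in Rb/p53/p130 tumours (0.000219). The phosphate transporter gene Slc34a2 fell by 3.40 ± 0.97 (limma adjusted p = 0.0145) in the first and differed by -3.26 ± 1.15 (0.0509) in the second. The sodium channel subunit gene Scnn1g fell by 3.71 ± 0.62 (limma adjusted p = 0.00031) and 3.36 ± 0.73 (0.0033). Zdhhc2, a palmitoyltransferase gene, was the 1 of the list that rose, by 2.70 ± 0.37 (limma adjusted p = 5.30e-05) and 2.79 ± 0.44 (0.000256). In Rb/p53 tumours Hps1 (0.08), Hps6 (-0.20), Ap3b1 (-0.10), Atp8a1 (-0.55) and Psap (0.21) did not pass (limma adjusted p from 0.167 to 0.799). Lamp3 and Cd63 were not analysed here.

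Of 18 lipid synthesis genes measured, 4 were called lower and 3 higher in Rb/p53 tumours (median change -0.39), and 4 lower and 2 higher in Rb/p53/p130 tumours. Over all genes 20.5% were called lower and 18.3% higher in the first comparison and 15.6% and 15.3% in the second, so these shares are near the background. Chpt1, which makes phosphatidylcholine in its last step, fell by 2.97 ± 0.27 in Rb/p53 tumours (SE; limma adjusted p = 8.63e-07). The 2 genes of the enzyme that sets the rate of phosphatidylcholine synthesis parted: Pcyt1a fell by 0.72 ± 0.19 (limma adjusted p = 0.00754) and Pcyt1b rose by 1.97 ± 0.46 (0.00402). Elovl1, a fatty acid elongase gene, fell by 2.14 ± 0.49 (limma adjusted p = 0.00374).

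Of 29 regulators of surfactant genes, 11 were called lower and 5 higher in Rb/p53 tumours (median change -0.21), and 5 lower and 4 higher in Rb/p53/p130 tumours. Set against the same shares over all genes, the 5 higher in the first and both counts in the second are near the background. Nkx2-1 did not pass the test, with a lung mean of 6.39, a mean of 6.52 ± 0.25 (SD, n = 10) over the Rb/p53 tumours and a difference of 0.13 ± 0.17 (SE; limma adjusted p = 0.622). Its brightest probe set read about the median of the arrays. Foxa1 rose by 1.24 ± 0.42 (limma adjusted p = 0.0349) and Foxa2 by 1.47 ± 0.24 (0.000262) in Rb/p53 tumours, and by 1.84 ± 0.50 (0.0133) and 1.40 ± 0.28 (0.002) in Rb/p53/p130 tumours. Against lung, the FOXA genes and the surfactant genes thus differed in opposite directions, and their relation across tumours was not tested.

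Regulators that fell in Rb/p53 tumours included Gata6 (-2.23 ± 0.44, SE; limma adjusted p = 0.00117), Cebpa (-1.36 ± 0.42; 0.022) and Etv5, an ETS factor of type 2 cells (-3.47 ± 0.63; 0.000573). In Rb/p53/p130 tumours Gata6 (-1.68 ± 0.52; limma adjusted p = 0.0273) and Etv5 (-3.11 ± 0.74; 0.00595) fell, and Cebpa differed by -1.14 ± 0.49 (0.111). Tbx2 fell by 4.20 ± 0.42 (limma adjusted p = 2.34e-06), while Elf3 rose by 2.24 ± 0.30 (3.68e-05) and Nfatc2 by 2.60 ± 0.27 (4.45e-06) in Rb/p53 tumours.

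**Figure D5:**
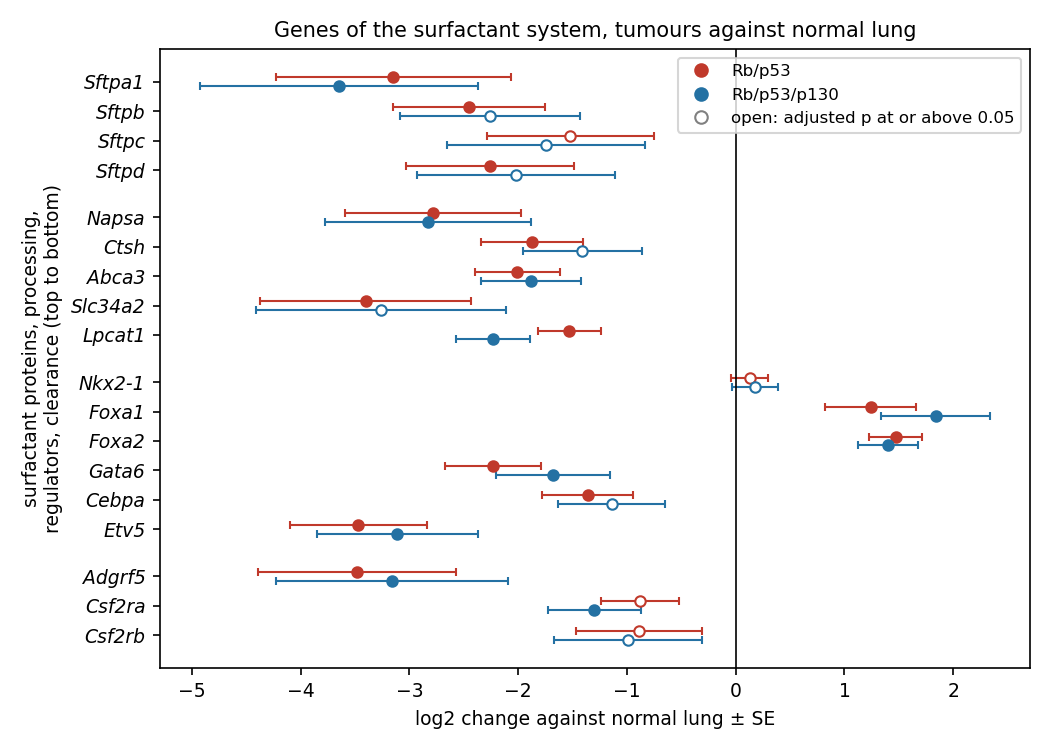
Log2 change against normal lung ± SE (horizontal axis) of the 4 surfactant protein genes and of processing, regulator and clearance genes fixed by name, a part of their lists, for Rb/p53 (red) and Rb/p53/p130 tumours (blue). Open points had a limma adjusted p at or above 0.05; Of the genes drawn, Foxa1 and Foxa2 lie to the right of 0, Nkx2-1 close to 0 and the others to the left; Zdhhc2, Elf3 and Nfatc2, which rose, are not drawn.

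Of 17 measured genes of surfactant uptake and clearance, 10 were called lower in Rb/p53 tumours (median change -1.30). In Rb/p53/p130 tumours 12 were called lower (-1.35), and none was called higher in either group. Over all genes, 20.5% and 15.6% were called lower and 18.3% and 15.3% higher in these comparisons. Adgrf5, a receptor gene that restrains the surfactant pool, fell by 3.48 ± 0.91 (SE; limma adjusted p = 0.00832) and 3.16 ± 1.07 (0.043). The lipid scavenger gene Cd36 fell by 3.75 ± 0.67 in Rb/p53 tumours (limma adjusted p = 0.00055) and Pparg by 1.72 ± 0.25 (9.47e-05). Csf2, the gene of GM-CSF, which drives surfactant breakdown by macrophages, fell by 1.56 ± 0.26 (limma adjusted p = 0.000328). It was dim, at a mean of 6.66 in lung and 5.10 in the Rb/p53 tumours. Of its receptor, Csf2ra differed by -0.88 ± 0.36 (limma adjusted p = 0.0817) and Csf2rb by -0.89 ± 0.58 (0.279) in Rb/p53 tumours. Against the same lungs, Csf2ra fell by 1.30 ± 0.43 (limma adjusted p = 0.0379) in Rb/p53/p130 tumours and Csf2rb differed by -0.99 ± 0.68 (0.341).

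Relatives of the surfactant proteins mostly did not pass the test, and the same holds for genes at large. Set against lung, Rb/p53 tumours had 20.5% of all genes called lower, and for the Rb/p53/p130 group this share was 15.6%. The few falls listed here therefore do not set these families apart. Of 5 other collectin genes, Colec12, a scavenger receptor gene, fell by 2.95 ± 0.36 (SE; limma adjusted p = 1.75e-05) and the dim Mbl1, of a mannose-binding lectin, by 0.55 ± 0.20 (0.045) in Rb/p53 tumours. Of 4 genes of saposin-like proteins, the fold of surfactant protein B, Smpd1 fell by 1.14 ± 0.27 (limma adjusted p = 0.00492). Of 8 genes with a BRICHOS domain, which the precursor of surfactant protein C carries, Gkn3 fell by 0.51 ± 0.13 (limma adjusted p = 0.0076). In Rb/p53/p130 tumours Colec12 fell by 2.86 ± 0.42 (limma adjusted p = 0.000153) and Gkn3 by 0.45 ± 0.16 (0.0469).

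Other genes typical of type 2 cells were counted through a marker list. Of 23 measured, 14 were called lower and 1 higher in Rb/p53 tumours (median change -2.60), and 9 lower and 1 higher in Rb/p53/p130 tumours (-2.34). Over all genes, 20.5% and 15.6% were called lower and 18.3% and 15.3% higher. The processing list shares 6 of the 24 listed genes. Lgi3 fell by 3.47 ± 0.77 in Rb/p53 tumours (SE; limma adjusted p = 0.00268) and S100g by 2.97 ± 0.63 (0.00198). The gene that rose, Bex2, by 3.28 ± 0.23 (limma adjusted p = 9.26e-08), is also active in neural and endocrine cells. The mean of this list lay between 11.58 and 11.99 in the lungs, 8.52 and 10.88 in Rb/p53 tumours, and 9.70 and 10.13 in Rb/p53/p130 tumours. Lists of other cells of the lung fell too in Rb/p53 tumours: 16 of 16 alveolar type 1 genes, 15 of 16 endothelial genes and 8 of 14 club and secretory genes were called lower, as were 13 of 15 ciliated genes.

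Genes beside the surfactant genes, by their order in assembly GRCm38.p6, differed among themselves. Sftpa1 and Sftpd lie near each other on chromosome 14 with Mbl1 between them, and gave r = 0.96 over the 10 Rb/p53 tumours. Mbl1 gave r = -0.43 with Sftpa1 and -0.39 with Sftpd, but it was dim in these tumours (4.99 to 5.53). Its r were not tested. Lgi3, next to Sftpc on chromosome 14, gave r = 0.85 with it, while Bmp1 on the other side gave r = 0.50 and a change of -0.63 ± 0.30 (SE; limma adjusted p = 0.126). Next to Sftpb on chromosome 6, Atoh8 fell by 1.05 ± 0.29 in Rb/p53 tumours (limma adjusted p = 0.012) and Usp39 differed by -0.08 ± 0.23 (0.826).

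The Gapdh control difference given above, a measure of RNA integrity, moved with the groups. With it as a covariate, the change in Rb/p53 tumours, besides that of Sftpa1, was -2.76 ± 1.74 for Sftpb (SE; limma adjusted p = 0.433), 0.24 ± 1.83 for Sftpc (0.966) and -0.64 ± 1.86 for Sftpd (0.903). No gene was then called, and the value and the group cannot be told apart in these arrays.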

How the data were processed

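RNA of 15 samples was extracted with Trizol and amplified in 2 rounds (RiboAmp), then hybridised to Affymetrix mouse arrays, per the labels. What the authors deposited are log2 levels for each probe set from RMA, named without version in the submitters' processing notes. Arrays have almost the same distribution (sorted values lie at most 0.32 apart), which hides shifts common to most genes. The table has 45101 probe sets including 64 controls, which were dropped. Of the rest, 34945 had 1 gene symbol, 932 several and 9160 none; 34741 of the first matched RefSeq genes of GRCm38.p6 by gene ID. Each gene was read through its brightest probe set.

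All 3 groups were fitted in limma 3.58.1 (R 4.3.3, lmFit and eBayes). Benjamini-Hochberg adjustment ran over all 45037 probe sets, and a call is an adjusted p below 0.05. Single values used exact two-sided permutation tests, and relations used 100000 permutations (scipy 1.17.1). Members and the 20 gene lists (257 of 268 different genes measured) were chosen with earlier results of these data known. Named genes are all members, fixed processing, regulator and clearance genes, called list genes with the highest change, the most alike genes and neighbours; others named were chosen after their values were seen. The fit was tested on simulated data. Covariates for the Gapdh and actin controls, array weights, leaving out each array and other alternatives are given at the end. Sources used here name no batch.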

Additional observations from a re-analysis of the deposited data

Results flagged for a closer look

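Of 32 measures looked at over the 10 Rb/p53 tumours, 2 had a tumour far from the others, where chance gives about 1 in 20. Foxa1 was lowest in tumour 7 at 11.21, while the other 9 ran from 12.38 to 13.62. The mean of the hepatocyte list was highest in tumour 2 at 7.44, while the others ran from 5.48 to 6.12. In the Rb/p53/p130 tumours that list stood at 5.81, 9.78 and 5.76 in tumours 11, 12 and 13. None of the surfactant gene levels in these 10 tumours had a tumour so far from the rest.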

How the results depend on the processing

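Of the recomputed values, 669 kept direction and side of the threshold, 43 lost a call and 11 gained one. Among the rest, 39 counts or values with no test moved and 14 changed sign. The cause was not tested. Counts of called genes in these other fits stand without the share of all genes called in the same fit, which is not given here. For Rb/p53 tumours against lung, fitting the compared groups alone gave -3.15 for Sftpa1 (limma adjusted p = 0.055) and -2.26 for Sftpd (0.0601), 1 gene of 4 called in place of 3. The Gapdh covariate gave -0.50, -2.76, 0.24 and -0.64 for Sftpa1, Sftpb, Sftpc and Sftpd, with 0 called. An actin 3' minus 5' covariate, chosen after seeing the data, gave -2.68 for Sftpa1 (limma adjusted p = 0.286) and -1.99 for Sftpd (0.268), with 1 called. Leaving out 1 array gave -3.38 to -2.78 for Sftpa1, -2.70 to -2.20 for Sftpb, -1.65 to -1.24 for Sftpc and -2.42 to -2.05 for Sftpd, with 0 to 3 called, 0 without either lung (the lone lung is then assumed to vary like the other groups) and 1 without tumour 9. The exact permutation test of Sftpc (-1.52) gave an unadjusted p = 0.0303, the floor that every gene without overlap reaches. For Rb/p53/p130 tumours against lung, where 1 gene was called, keeping only probe sets above the median level gave -2.26 for Sftpb (limma adjusted p = 0.0413; 2 called). The compared groups alone gave -2.26 for Sftpb (0.000437), -1.74 for Sftpc (0.0333) and -2.02 for Sftpd (limma adjusted p = 0.000215), with 4 called, and array weights gave -2.29 for Sftpb (0.0151) and -1.97 for Sftpd (0.0438), with 3 called. The Gapdh covariate gave -0.85 for Sftpa1 and 0.11 for Sftpc, the actin covariate -3.25 for Sftpa1, both with 0 called, and the exact test p = 0.2 for Sftpa1 (-3.65). Leaving out 1 array gave -4.00 to -3.17 for Sftpa1, -2.51 to -2.0 for Sftpb, -1.99 to -1.23 for Sftpc and -2.11 to -1.94 for Sftpd, with 0 to 2 called.

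Between genotypes Sftpc ran from -0.49 to 0.29 without 1 array (0.29 without tumour 13), and no setting called a surfactant gene. The second Sftpa1 probe set ran from -0.30 to 0.60 there (-0.02 with the actin covariate), and the second Sftpc probe set from -0.01 to 0.12 (-0.04 with actin); against lung the latter ran from -0.26 to 0.66 in Rb/p53 and from -0.20 to 0.72 in Rb/p53/p130 tumours, below 0 without normal lung 2. Of listed genes, 1 was called between genotypes, and 0 after quantile normalisation again, with arrays centred on their medians, or with only probe sets above the median level, and 0 to 1 without 1 array. Readings near the top of the scale were 20 at the 99th percentile and 4 within 0.5 log2 units. Arrays numbered 1 and 2 occur in Rb/p53 tumours and lungs. With these numbers as a replicate block the changes were -3.13 for Sftpa1, -3.00 for Sftpb, -1.39 for Sftpc (limma adjusted p = 0.0376) and -2.28 for Sftpd, with 4 called. Same-numbered arrays did not deviate together (r = -0.00 and -0.06). The deviations of 2 lungs from their mean mirror each other, so these r cannot exclude a pairing.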

Other observations

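Further genes of the surfactant system gave the following values. Psap, the gene of the saposin precursor, differed by 0.21 in Rb/p53 tumours (limma adjusted p = 0.467). The lipid synthesis genes Fasn (-0.53, limma adjusted p = 0.112) and Srebf1 (-0.26, adjusted p = 0.409) did not pass there, while Fasn fell by 0.82 ± 0.28 in Rb/p53/p130 tumours (SE; limma adjusted p = 0.0444). Marco, a scavenger receptor gene of alveolar macrophages, fell by 3.09 ± 0.95 in Rb/p53/p130 tumours (SE; limma adjusted p = 0.0268) and differed by -1.54 ± 0.81 in Rb/p53 tumours (0.169). Between the tumour genotypes 1 of the 257 listed genes measured was called, where 0.0715% of all genes were called. This was Jund, an AP-1 subunit gene, which was lower in Rb/p53/p130 tumours by -0.81 ± 0.15 (SE, limma adjusted p = 0.0461). Neither Jund nor any other listed gene was called after quantile normalisation again, with arrays centred on their medians, with only probe sets above the median level, or in 10 of 15 limma fits that left out 1 array (each without 1 of the tumours 2, 4, 5, 6, 7, 9, 10, 11, 12 and 13).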
